A study of Mus musculus with 2 samples.

Results

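Expression of 9 genes of serine synthesis and folate one-carbon metabolism was examined in polyA RNA from the forebrain of mouse embryos: Phgdh, Psat1, Psph, Shmt1, Shmt2, Mthfd1, Mthfd2, Mthfd1l and Tyms. They were taken by name from the gene and transcript tables quantified on GENCODE release M21, and all 9 were found among the 55536 genes of those tables. The labels give 1 group, healthy B6NCrl embryos of both sexes at embryonic day 12.5, with no mutant, treatment or other contrast. Pool 1 combined 120 embryos and pool 2 combined 68, and each library was made from 10 ng of RNA primed with oligo-dT, amplified as full-length cDNA and cut by tagmentation. The pools are labelled as biological replicates, and levels are given for pool 1 first and pool 2 second.

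Serine is made from the glycolytic intermediate 3-phosphoglycerate in a short chain of enzymes, and its side-chain carbon is then passed to tetrahydrofolate, leaving glycine. Folate carries that carbon at several oxidation states, in the cytosol and in mitochondria, and hands it on to purines, to thymidylate and to methionine. In the embryonic brain the pathway is known for its link to neural tube closure and to the nucleotide demand of dividing progenitors.

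The library of pool 1 held 33373843 counts on genes and that of pool 2 held 34406648. The ERCC spike-ins, synthetic RNAs added in known amounts, took 3.58% and 3.28% of the counts. For the labelled tissue, 9 of 9 radial glia genes and 7 of 7 neuron genes were detected, meaning that each pool reached a TPM of 1. TPM is a transcript abundance scaled per length and to a fixed total per library. RNA of other cells was present too: the summed TPM of 7 erythroid genes was 11836 in pool 1 and 15868 in pool 2, that of 6 mesenchyme and meninges genes 637 and 774, and that of 4 choroid plexus genes 52.0 and 98.6. In bulk tissue fewer cells of a type and less RNA per cell cannot be told apart.

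All 9 genes were detected in both pools, where 58.9% of the 22028 annotated protein-coding genes were. Their levels spanned a wide range, from Phgdh at 215 ± 0.919 TPM (SD, n = 2) to Mthfd1l at 8.76 ± 0.00707 TPM. The median of the 9 was 51.5 TPM, and that of all detected protein-coding genes was 21.9 TPM. By gene totals the order was Phgdh, Tyms, Psat1, Shmt2, Mthfd1, Shmt1, Psph, Mthfd2 and Mthfd1l, and no neighbours in it overlapped between the pools. The closest neighbours were Shmt1 and Psph, where the lower pool of Shmt1 stood 1.06 times above the higher pool of Psph.

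**Figure D1:**
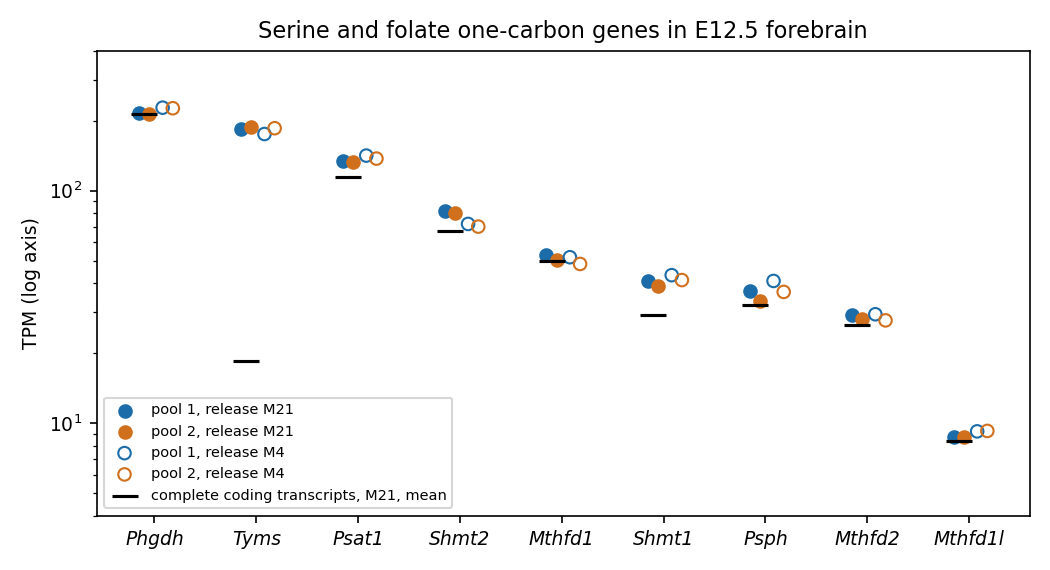
Level of each gene in TPM on a log axis, with filled points for release M21, open points for release M4, blue for pool 1 and orange for pool 2. Black bars mark the mean TPM of transcripts with a complete coding sequence, which lies at 18.4 for Tyms, far below its gene total of 187, and close to the gene total for Phgdh.

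The serine synthesis chain begins with Phgdh (ENSMUSG00000053398.11, chromosome 3, 98313170 to 98339990, GRCm38, minus strand), which oxidises 3-phosphoglycerate. It stood at 216 TPM in pool 1 and 215 in pool 2, on expected counts of 8224 and 8487. The pools were almost equal, and 94.9% of detected protein-coding genes had a lower mean TPM. Nearly all of it was a single coding transcript, Phgdh-201, with 99.9% of the gene's TPM in pool 1 and 99.4% in pool 2. The annotation also holds 19 genes whose transcripts match the Phgdh coding sequence at 90% identity or more over at least 200 bases, 17 of them processed pseudogenes. Together those 19 received 79.9 counts in pool 1 and 69.0 in pool 2, so few reads were assigned to the copies, although reads that match several copies are shared out by estimate.

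Psat1 (ENSMUSG00000024640.9, chromosome 19, 15904678 to 15947337, GRCm38, minus strand) encodes the aminotransferase of the next step. Its level was 134 TPM in pool 1 and 133 in pool 2. Unlike Phgdh, it was divided between transcripts with different first exons, each of which has its own RefSeq start site. Psat1-201 held 53.8% of the gene's TPM in pool 1 and 59.4% in pool 2, and its exon 1 lies at chr19:15924864-15925059 with 60 coding bases. Psat1-205 held 35.2% and 23.3%, and its exon 1 lies downstream at chr19:15924304-15924622 with 51 coding bases. A retained-intron transcript, Psat1-204, held a further 10.6% and 12.6%.

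Both start sites are shown with the 300 bases of RefSeq promoter (GRCm38.p6, minus strand) that surround them, because transcripts from both were assigned counts. The transcripts also differ in exon 9, which has 1474 bases in Psat1-201 and 1025 in Psat1-205. Reads at the first exons were not counted, so the use of each start was not measured. The capitals mark CCAAT in either orientation, the letters bound by the factor NF-Y.

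Psat1-201 start, chr19:15925010-15925309: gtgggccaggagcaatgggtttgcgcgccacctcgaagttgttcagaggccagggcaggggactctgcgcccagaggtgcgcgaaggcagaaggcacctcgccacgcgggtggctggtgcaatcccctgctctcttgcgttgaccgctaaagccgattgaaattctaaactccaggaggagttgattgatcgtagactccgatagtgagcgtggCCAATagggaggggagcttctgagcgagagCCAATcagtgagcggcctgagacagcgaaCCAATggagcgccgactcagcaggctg

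Psat1-205 start, chr19:15924573-15924872: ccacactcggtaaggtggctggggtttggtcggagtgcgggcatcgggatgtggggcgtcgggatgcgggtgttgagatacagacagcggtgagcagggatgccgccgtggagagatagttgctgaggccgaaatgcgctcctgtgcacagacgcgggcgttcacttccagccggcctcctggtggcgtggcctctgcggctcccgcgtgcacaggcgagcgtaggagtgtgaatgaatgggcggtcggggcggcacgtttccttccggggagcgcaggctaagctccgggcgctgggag

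CCAAT occurred 3 times in the promoter of Psat1-201 and 0 times in that of Psat1-205, while the GC box letters GGGCGG occurred 0 times in the former and 2 times in the latter. Among 32851 RefSeq promoters of this length, searched on both strands, 37.4% held CCAAT and 35.7% held GGGCGG. Over the 10 promoters of the 9 genes, 6 held CCAAT and 6 held GGGCGG. The letters TGATGNAA, the core that ATF4 and C/EBP partners bind together in amino acid response genes, occurred in 0 of the 10 and in 3.97% of all. The letters TATAAA occurred in 1 of the 10, that of Phgdh, and in 13.6% of all. A match is only a match of letters in this window.

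Psph (ENSMUSG00000029446.14, chromosome 5, 129765558 to 129787449, GRCm38, minus strand), the phosphatase that releases free serine, was the lowest of the chain at 36.9 TPM in pool 1 and 33.5 in pool 2. On the log2(TPM + 1) scale Phgdh lay 2.58 ± 0.0888 (SD, n = 2) above it and Psat1 1.89 ± 0.0822 above it. The linear ratio of Phgdh to Psph was 5.85 in pool 1 and 6.40 in pool 2. Psph-201 carried 71.7% and 72.7% of the TPM, and the shorter coding transcript Psph-202, whose coding sequence has 303 bases where that of Psph-201 has 675, carried 19.9% and 17.8%. The gene overlaps 452 bases of Cct6a, a chaperonin gene on the other strand at 573 TPM in pool 1 and 556 in pool 2. Whether counting used strand is not given, so reads from the shared bases cannot be assigned with certainty.

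Shmt1 and Shmt2 move the carbon of serine onto folate, the former in the cytosol and the latter in mitochondria. Shmt2 (ENSMUSG00000025403.5, chromosome 10, 127517123 to 127522444, GRCm38, minus strand) stood at 82.0 TPM in pool 1 and 80.5 in pool 2. Shmt1 (ENSMUSG00000020534.14, chromosome 11, 60788104 to 60811718, GRCm38, minus strand) stood at 41.1 TPM and 39.1 TPM. The mitochondrial gene was the higher in both pools, by a ratio of 2.00 in pool 1 and 2.06 in pool 2, or 1.00 ± 0.0306 (SD, n = 2) on the log2(TPM + 1) scale. In release M4, where Shmt2 has a mean of 71.0 TPM and Shmt1 of 42.3 TPM, the difference was 0.73.

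Shmt2 had a pair of full-length coding transcripts. Shmt2-201 held 55.0% of its TPM in pool 1 and 59.7% in pool 2, and Shmt2-206 held 28.5% and 21.9%. They differ within the coding sequence at exon 2, where Shmt2-206 starts 9 bases later and stays in frame. The start of exon 2 of Shmt2-201 is shown because those bases, in capitals, are the coding difference between the forms (GRCm38, minus strand).

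Shmt2-201 exon 2 start, chr10:127521077-127521115: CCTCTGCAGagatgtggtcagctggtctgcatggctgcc

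The posterior SD of the expected count of Shmt2-206, a spread the authors deposited for the read assignment, was 132 in pool 1 and 131 in pool 2, on counts of 1061 and 834. Shmt1 was carried by Shmt1-201, with 67.3% of TPM in pool 1 and 78.3% in pool 2. The rest lay mainly in retained-intron transcripts, which held 24.3% and 18.6% of TPM but 8.26% and 6.08% of expected counts. Shmt1 shares 184 bases with Smcr8 on the other strand, at 8.98 TPM in pool 1 and 8.59 in pool 2, and Shmt2 shares 32 bases with Ndufa4l2, at 7.01 and 4.59 TPM.

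Mthfd1, Mthfd1l and Mthfd2 interconvert the folate-bound carbon. Mthfd1 (ENSMUSG00000021048.7, chromosome 12, 76255298 to 76319803, GRCm38, plus strand) is the cytosolic enzyme with all 3 activities, and stood at 52.8 TPM in pool 1 and 50.2 in pool 2. Mthfd1l (ENSMUSG00000040675.17, chromosome 10, 3973118 to 4167081, GRCm38, plus strand), the mitochondrial formate-releasing enzyme, was the lowest of the 9 at 8.75 TPM and 8.76 TPM. It lay below Mthfd1 by a mean log2(TPM + 1) difference of -2.43 ± 0.0518 (SD, n = 2), and its TPM was 0.166 of that of Mthfd1 in pool 1 and 0.175 in pool 2. Of detected protein-coding genes 27.6% had a lower mean TPM than Mthfd1l, so it lay in the lower part of the expressed range. Its leading transcript Mthfd1l-202 held 75.7% and 76.3% of its TPM, and Mthfd1l-201, with the same 2931 coding bases but another start and a shorter last exon, held 24.3% and 15.2%.

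Mthfd2 (ENSMUSG00000005667.8, chromosome 6, 83305691 to 83325908, GRCm38, minus strand), the mitochondrial dehydrogenase and cyclohydrolase known from embryonic and dividing cells, stood at 29.2 TPM in pool 1 and 28.0 in pool 2. Mthfd2-201 held 92.5% and 92.7% of it. Its paralogue Mthfd2l, a mitochondrial enzyme of the same step, stood higher, at 78.0 TPM and 75.2 TPM, a log2(TPM + 1) difference of -1.39 ± 0.00185 (SD, n = 2) for Mthfd2 minus Mthfd2l. That gap depended on 1 short transcript, Mthfd2l-203, which has 688 bases of which 186 are coding. It held 54.2% of the TPM of Mthfd2l in pool 1 and 51.6% in pool 2, but 24.8% and 22.9% of its expected counts. Without it the difference was -0.33, and in release M4 it was -0.31.

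Mthfd1 was divided in the coding region. Mthfd1-201 held 71.3% of its TPM in pool 1 and 66.0% in pool 2, and Mthfd1-206 held 25.9% and 29.9%. Mthfd1-206 lacks exon 2, which has 85 bases and so leaves a remainder of 1 base after whole codons. The annotated coding sequence of Mthfd1-206 begins after its exon 1, which holds 0 coding bases, where exon 1 of Mthfd1-201 holds 41. It therefore does not run across the junction that skips exon 2. It has 2265 bases where that of Mthfd1-201 has 2805. The exon is shown whole, in capitals, because it separates the 2 forms (GRCm38, plus strand).

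Mthfd1-201 exon 2, chr12:76270418-76270502: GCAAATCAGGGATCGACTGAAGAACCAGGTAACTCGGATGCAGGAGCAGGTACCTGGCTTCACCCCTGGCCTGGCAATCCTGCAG

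The posterior SD of the count of Mthfd1-206 was 141 in pool 1 and 150 in pool 2, on expected counts of 853 and 976. The count of this form was thus several times its assignment spread in each pool.

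Tyms (ENSMUSG00000025747.12, chromosome 5, 30058202 to 30073617, GRCm38, minus strand) makes thymidylate from deoxyuridylate with a folate carbon and is known as an S phase gene. Its gene total was 185 TPM in pool 1 and 189 in pool 2, the second of the 9. Its transcripts were unlike those of the other 8 genes. The only Tyms transcript annotated with a complete coding sequence, Tyms-201, held 10.4% of the gene's TPM in pool 1 and 9.40% in pool 2, or 19.1 and 17.8 TPM. Transcripts annotated for nonsense-mediated decay held 54.4% and 56.9%, and retained-intron transcripts 23.9% and 28.4%. The order of these classes depended on the annotation. Release M4 lists 2 decay forms of Tyms where M21 lists 3. With each transcript classed as in M21, the decay forms of M4 held 41.4% and 40.9% and its retained-intron forms 47.0% and 48.2%.

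Complete coding transcripts held under 50% of the TPM in 1 of the 9 genes, Tyms, and in 16.3% of 9021 protein-coding genes whose mean TPM reached 10 and whose median share was 84.8%. In the other 8 the share ran from 67.3% for Shmt1 in pool 1 to 100% for Mthfd1l in pool 1. When only complete coding transcripts were counted the order became Phgdh at 215 TPM, Psat1 at 114, Shmt2 at 67.0, Mthfd1 at 49.7, Psph at 32.1, Shmt1 at 29.1, Mthfd2 at 26.5, Tyms at 18.4 and Mthfd1l at 8.40 TPM. Tyms thus went from rank 2 to rank 8, and Psph passed Shmt1, although their pools overlapped on this scale. Incomplete coding transcripts of Tyms, left out of this order, held a further 20.9 TPM in pool 1 and 9.19 in pool 2.

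**Figure D2:**
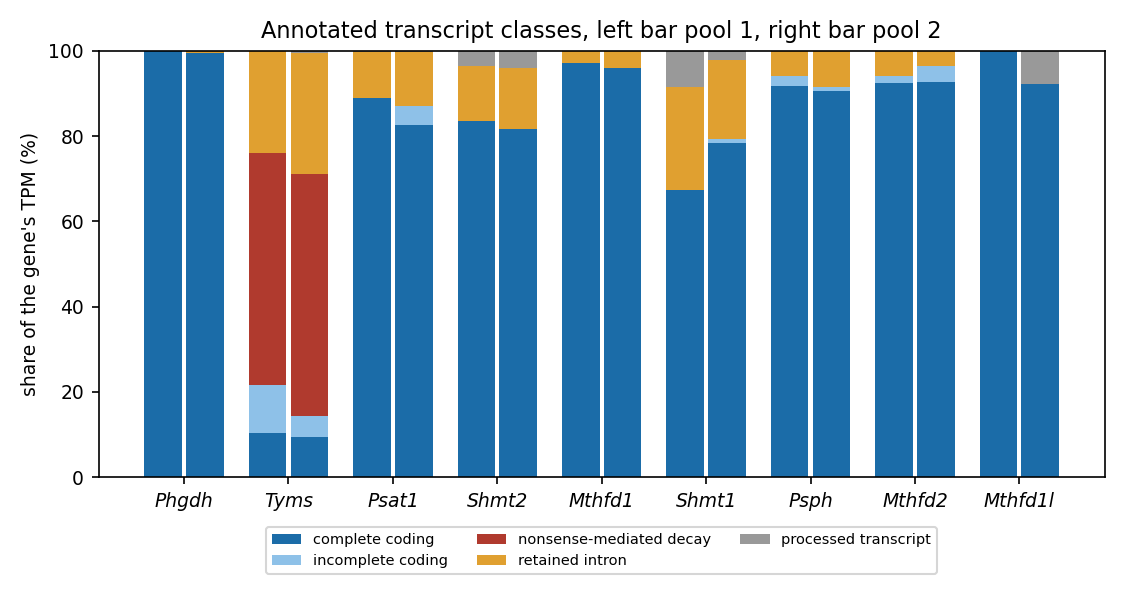
Share of each gene's TPM in release M21 by annotated transcript class, in percent, with pool 1 as the left bar and pool 2 as the right bar. Complete coding transcripts (dark blue) fill most of each bar except in Tyms, where nonsense-mediated decay transcripts (red) hold 54.4% and 56.9%.

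Of the 9 annotated Tyms transcripts, Tyms-205 had the largest share of TPM, 34.2% in pool 1 and 31.2% in pool 2, and Tyms-207 held 16.4% and 21.1%. Both are short, 618 and 636 bases, where Tyms-201 has 3163. By expected counts, which are not divided by length, Tyms-201 held 27.5% and 24.1%, Tyms-206 with a retained intron 25.0% and 26.4%, and Tyms-205 15.4% and 13.5%. The rank of the forms therefore differs between the per-length scale and the count scale.

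Tyms-205 and Tyms-207 each differ from Tyms-201 at a splice junction, and those junctions are shown because they are among the differences between the forms. Both also lack all or nearly all of the last exon of Tyms-201, which has 2307 bases. In Tyms-205 exon 1 (chr5:30073462-30073552) ends 101 bases before that of Tyms-201 (chr5:30073361-30073617). Tyms-207 skips the 175-base exon 3 (chr5:30068466-30068640). Capitals mark the downstream exon, with 20 bases on each side, read from the GENCODE M21 transcripts on the minus strand of chromosome 5 (GRCm38).

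Tyms-201 exons 1 and 2: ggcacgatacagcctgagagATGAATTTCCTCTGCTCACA

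Tyms-205 exons 1 and 2: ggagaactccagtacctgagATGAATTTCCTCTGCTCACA

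Tyms-201 exons 2 and 3: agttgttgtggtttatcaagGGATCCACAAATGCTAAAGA

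Tyms-207 exons 2 and 3: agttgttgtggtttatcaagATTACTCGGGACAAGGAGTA

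The skipped 175 bases leave a remainder of 1 base after whole codons. In Tyms-205 the annotated coding sequence begins in exon 2, so its shorter exon 1 holds no coding bases. The deposited tables hold estimated counts per transcript and not counts of reads across these junctions.

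The 3′ end of Tyms is shown for a further reason. Mouse Tyms is known for mRNAs whose poly(A) tail is added at the stop codon, so that they have almost no 3′ untranslated region. The last 60 coding bases and the stop codon hold ATTAAA 1 time and AATAAA 0 times (capitals mark ATTAAA and the stop codon).

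Tyms-201 coding end, chr5:30060996-30061058: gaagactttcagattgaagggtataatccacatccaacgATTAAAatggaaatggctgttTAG

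No annotated Tyms transcript ends at that stop codon. Tyms-201 runs 2169 bases past it, Tyms-206 ends 68 bases before it and Tyms-207 ends 135 bases before it. How far the shares of the annotated transcripts depend on these ends was not tested. Release M4 lists 6 Tyms transcripts and lacks the decay form Tyms-207. In it the retained-intron form Tyms-202 held a mean of 33.8% of TPM, where it held 14.6% in M21. Tyms-205, modelled there with 797 bases, held 36.5%, and Tyms-201 held 10.9%.

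**Figure D3:**
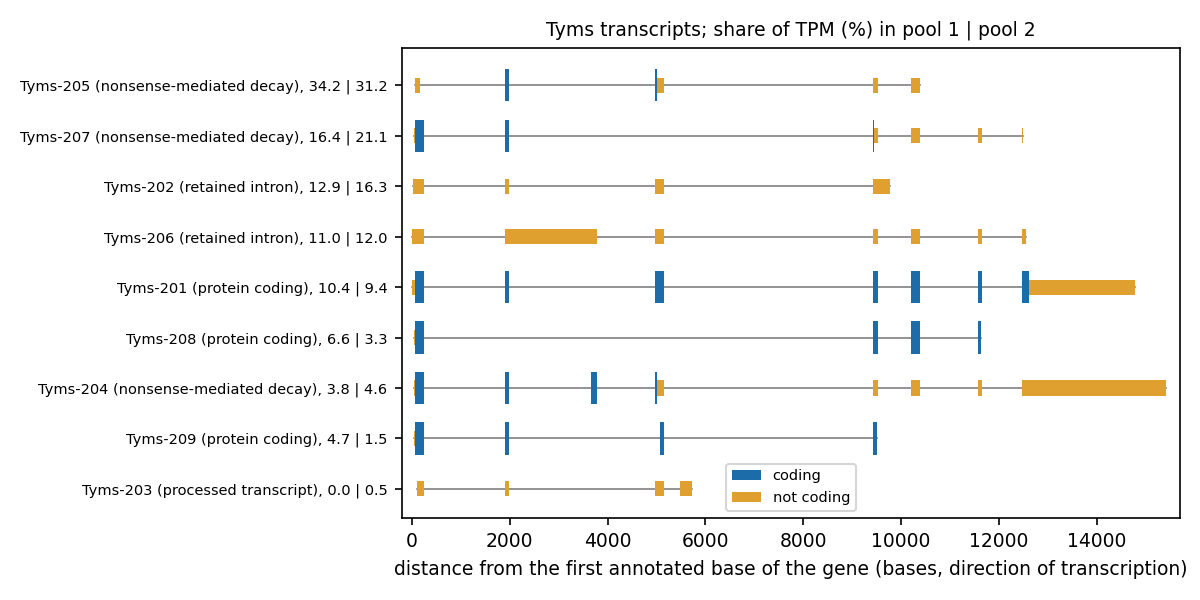
Annotated Tyms transcripts drawn to scale in the direction of transcription, by distance in bases from the first annotated base, with coding parts in blue, other exon parts in orange, and each transcript's share of TPM in pool 1 and pool 2. Tyms-201, the only form with a complete coding sequence, holds 10.4% and 9.4%, while Tyms-205 holds 34.2% and 31.2%.

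Between the pools the 9 genes hardly differed. The ratio of TMM-normalised counts, pool 1 over pool 2, was above 1 in 7 genes and below 1 in Shmt1 and Tyms. Its log2 value ran from -0.065 for Tyms (95% counting interval -0.12 to -0.0066) to 0.15 for Psph (0.026 to 0.27). None of the 9 passed 1.2-fold. Of the 9480 genes whose mean TPM reached 10, 8 members among them, 7.32% passed 1.2-fold and 58.5% were higher in pool 1, as were 6 of the 8. The median absolute log2 ratio was 0.072 over the 9 genes and 0.076 over the 9480. Scaled to ERCC totals, the log2 ratio of all genes had a median of -0.17 and that of the 9 genes a median of -0.092, against 0.072 with TMM, so the sign of these small differences rests on the scaling. The erythroid, mesenchyme and choroid plexus sums given above were higher in pool 2, as was that of microglia and macrophage genes. Summed TPM was higher in pool 1 for radial glia (2636 and 2461), neuron (1536 and 1427) and S phase genes (1206 and 1172). That of endothelium genes was also higher in pool 1, at 71.8 and 70.1. These lists were not uniform. Among radial glia genes Fabp7 stood at 904 and 759 TPM, while Vim, Sox2, Pax6 and Hes1 had the higher TPM in pool 2. So did Stmn2 and Rbfox3 of the neuron genes, Mcm5 of the S phase genes, and Cldn5 and Tie1 of the endothelium genes. The part of these sums in the ratios was not tested.

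**Figure D4:**
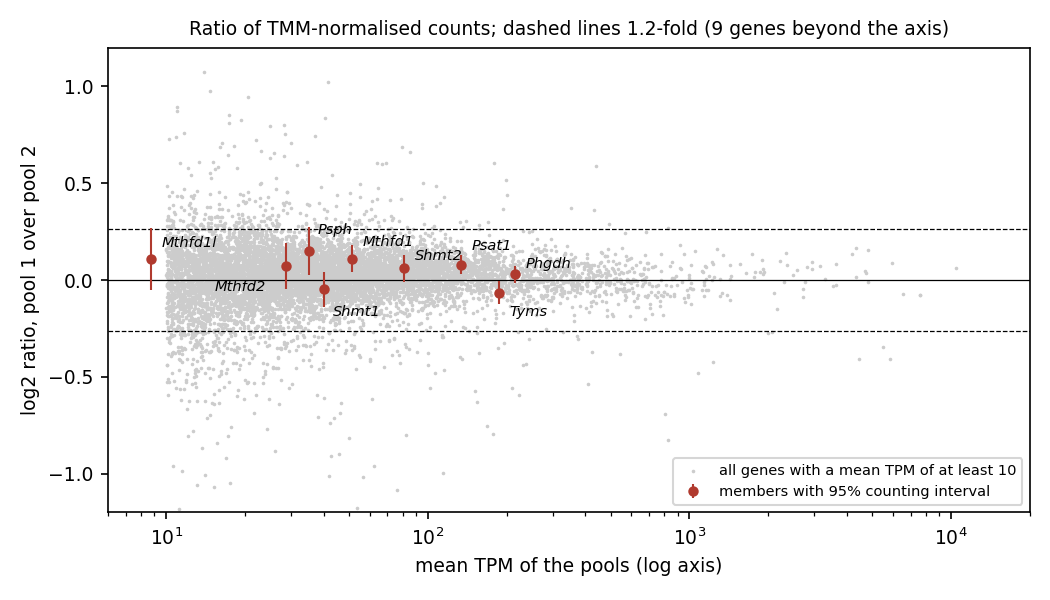
Log2 ratio of TMM-normalised counts, pool 1 over pool 2, against mean TPM on a log axis, with grey points for genes whose mean TPM reached 10 and red points for the 9 genes with 95% counting intervals. All 9 red points lie within the dashed lines at 1.2-fold, and 9 grey genes lie beyond the axis.

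Transcript shares were compared between the pools as well. Among 19 transcripts of the 8 genes at or above 10 TPM with at least 10% of their gene's TPM in a pool, 2 differed by over 10 percentage points. Psat1-205 was 11.9 points higher in pool 1 and Shmt1-201 was 11.0 points lower there. Over all such transcripts of such genes 9.27% of 19623 differed by as much. For Psat1-205 the posterior SD of the count was 206 on 2197 in pool 1 and 257 on 1497 in pool 2. By expected counts Psat1-205 held 33.8% of its gene in pool 1 and 23.1% in pool 2, and Shmt1-201 held 87.2% and 92.3%.

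The annotation release changed these genes little. The TPM of the 8 genes at or above 10 TPM differed by no more than 1.2-fold between releases, where 13.5% of 8968 protein-coding genes differed by more. The ratio of release M21 to M4 was highest for Shmt2, at 1.14, and lowest for Psph, at 0.908. The median log2(TPM + 1) difference was -0.064 over the 9 genes and -0.067 over the protein-coding genes.

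Around the 9 genes, 68 further genes of the pathway and its surroundings were looked up in 9 lists. Of these, 59 were detected, against 58.9% of annotated protein-coding genes, a share that also applies to the list counts below. Of the 59 with enough counts for the pool comparison, 5 differed by over 1.2-fold, where 28.8% of all 19063 genes compared did. These were Amt at a ratio of 1.25, Sesn2 at 1.49, Folr1 at 0.678, Trib3 at 0.577 and Folr2 at 0.305, all but Amt under 10 TPM. Of the 68 genes, 44 reached a mean TPM of 10, and 7.32% of all 9480 genes at that level passed 1.2-fold. The value of Folr2 rests on 7.75 counts in pool 1 and 29.7 in pool 2, and its TPM was 1.07 and 1.49. Folr1 is also among the choroid plexus genes, so the choroid plexus sum given above includes it. Whether its ratio follows the choroid plexus content of the pools was not tested.

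The 6 genes of deoxynucleotide supply had a median of 170 TPM, led by the ribonucleotide reductase subunit Rrm2 at 418 TPM in pool 1 and 411 in pool 2. The lowest of them, the thymidine kinase Tk1, was at 85.5 TPM and 90.4 TPM. The 6 genes of purine synthesis were detected too, with Paics, which acts in the middle of the chain, at 292 TPM and 271 TPM. Gart and Atic, whose steps take formyl groups from folate, stood at 96.7 and 92.5 TPM and at 29.4 and 29.3 TPM.

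The glycine cleavage system, which takes carbon from glycine in mitochondria, was detected with 4 of 4 genes. Its decarboxylase Gldc stood at 40.4 TPM in pool 1 and 35.1 in pool 2, and the aminomethyltransferase Amt at 17.5 TPM and 13.9 TPM. Gcsh and Dld, the latter shared with other mitochondrial complexes, stood higher, at 88.4 and 99.3 TPM and at 117 and 116 TPM. Folate entry and storage were at lower levels, with a median of 14.1 TPM over 7 genes. The reduced folate carrier Slc19a1 was the highest of them at 26.8 TPM and 23.7 TPM, and the mitochondrial folate carrier Slc25a32 stood at 6.94 TPM and 7.71 TPM.

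Of 8 other folate enzymes 7 were detected. The cytosolic Aldh1l1, a known astrocyte marker, was at 1.56 TPM and 1.59 TPM, and its mitochondrial paralogue Aldh1l2 at 9.13 TPM and 8.45 TPM. Ftcd, of hepatic histidine breakdown, was listed at 0 counts in both pools, which allows up to 3 counts in each.

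In the methionine cycle 7 of 11 genes were detected. The S-adenosylmethionine synthase Mat2a reached 370 TPM in pool 1 and 372 in pool 2, while its liver paralogue Mat1a was listed at 0 counts. Mtr, the synthase that joins the folate and methionine cycles, stood at 10.4 TPM and 9.12 TPM. The other genes below detection were Bhmt, Bhmt2 and Gnmt, whose highest value was 0.71 TPM.

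Serine carriers and users were detected in 11 of 13 cases. The mitochondrial serine carrier Sfxn1 led at 66.2 TPM in pool 1 and 65.3 in pool 2, and the neutral amino acid carrier Slc1a4 stood at 22.7 TPM and 19.3 TPM. The dehydratase Sds, of hepatic serine breakdown, was listed at 0 counts in both pools. Choline-derived units had 2 of 4 genes detected, with Chdh and Dmgdh at or under 0.06 TPM.

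The amino acid response, through which ATF4 is known to drive serine synthesis genes, had 9 of 9 genes detected. Atf4 itself stood at 110 TPM in pool 1 and 103 in pool 2, and Asns, asparagine synthetase, at 36.8 TPM and 35.1 TPM. Ddit3, the stress-induced factor CHOP, stood at 18.8 TPM and 17.1 TPM and Sesn2 at 8.79 TPM and 5.95 TPM. The lowest of the list was Trib3, at 1.22 TPM and 2.16 TPM.

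**Figure D5:**
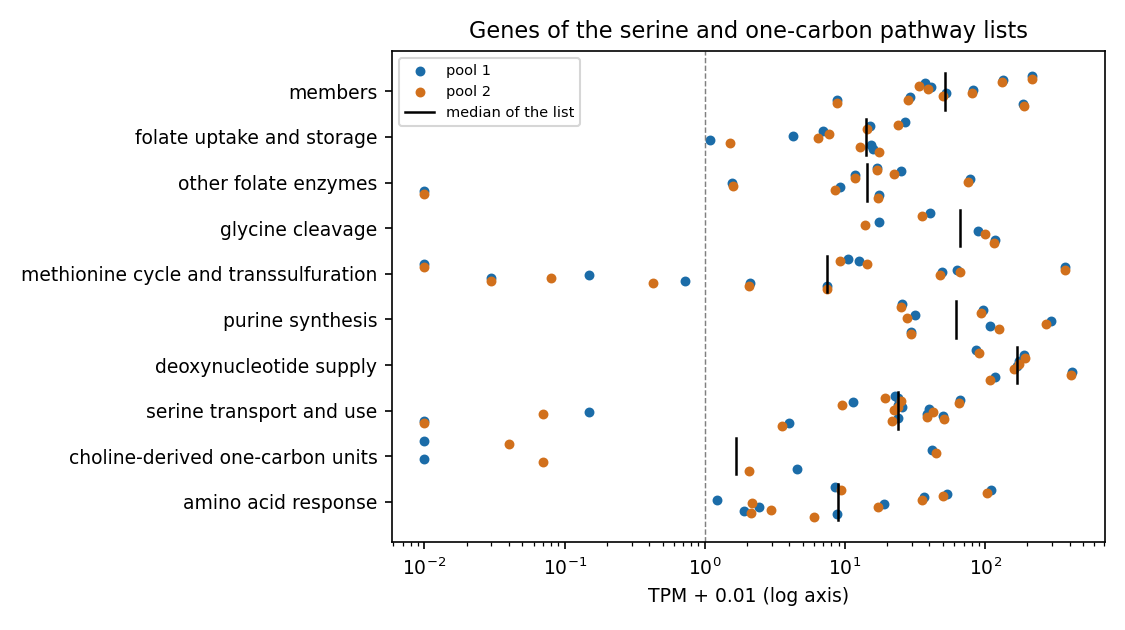
TPM plus 0.01 on a log axis for each gene of the 9 members and of the 9 pathway lists, 1 row per list, blue for pool 1 and orange for pool 2, with a black bar at each list's median and a dashed line at a TPM of 1. The deoxynucleotide list has its median at 170 TPM, and the genes left of the dashed line include Ftcd, Mat1a and Sds, listed at 0.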

How the data were processed

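PolyA RNA-seq was measured in 2 forebrain pools. For each library the authors deposited tables on mm10 with GENCODE M21 (used as main) and M4 (alternative). Their deposited expected counts are unnormalised estimates, in which a read with several matches is divided among them. The deposited TPM values are scaled per length and to 1000000 per library. The deposited posterior mean TPM and posterior SD of counts were treated as a score. Column names follow RSEM's layout, per the file headers, with aligner, quantifier and use of strand not given in the sources used here.

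Genes and coordinates came from the M21 annotation, which matched all 55536 identifiers. A gene was detected if each pool reached a TPM of 1. A transcript counted as complete coding when annotated as protein coding with both ends of its coding sequence. Pool ratios used expected counts rounded to whole numbers, TMM (edgeR 4.0.16), a prior count of 1 and a mean count of at least 10 (19063 genes), with exact binomial intervals at 95%, which cover counting error only. No test was run, since the smallest exact two-sided p over 2 pools is 0.5. DESeq2 1.42.0 size factors, ERCC totals, release M4, posterior mean TPM, another pseudocount and subsets of transcripts were alternatives. The ratio script was tested on simulated data. Near copies were searched with BLAST 2.17.0, and R 4.3.3, Python 3.11.15 and pandas 2.3.3 were used. All 9 members matched the RefSeq promoter table.

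The members and gene lists were chosen with earlier results of these data known. Named were all members, any gene of the pathway lists, and copies or overlapping genes; 2 genes of these lists are not reported here. Numbered entries that name no gene held 5.74e-05% and 9.00e-05% of counts and were left out.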

Additional observations from a re-analysis of the deposited data

How the results depend on the processing

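Of 53 recomputed values, 32 stayed near the main value, within the spread between the pools or, for a count of genes, within 1.5 times, and 21 moved further. At a TPM of 10 in both pools 8 of the 9 genes were detected, without Mthfd1l. The median TPM of the 9 genes, 51.5, was 33.5 with protein-coding transcripts and 32.1 with complete coding transcripts, a setting chosen after seeing the data. The Shmt2 minus Shmt1 difference was 0.73 in release M4, 0.95 with posterior mean TPM, 1.17 with protein-coding and 1.18 with complete coding transcripts. Mthfd1l minus Mthfd1 was -2.32 in M4 and -2.54 with a pseudocount of 0.1. Mthfd2 minus Mthfd2l was -0.31 in M4, -1.35 with posterior mean TPM, -1.41 with protein-coding transcripts, -1.45 with complete coding transcripts, -1.42 with a pseudocount of 0.1 and -0.33 without Mthfd2l-203, the last chosen after seeing the data. The median log2 pool ratio was 0.072, and with ERCC scaling it changed sign to -0.092. The median annotation difference was -0.064, -0.040 on counts scaled to a fixed total and -0.068 to -0.052 with a pool left out. The median share of the leading transcript was 72.2% of TPM and 79.3% of counts. The Tyms-201 share of 9.88% was 10.9% in M4, the decay share of Tyms was 55.6% in M21 and 41.2% in M4, and its retained-intron share 26.1% and 47.6%, all 3 chosen after seeing the data. The cause of these moves was not tested. No paired analysis was possible because the labels give a single group. Counting error limits the pool ratios of the 9 genes to a median of ± 0.07 on the log2 scale. Intervals were wider at low counts, as for Folr2, at -3.17 to -0.67.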
